A study of Arabidopsis thaliana with 114 samples.

Results

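The genes described here are 44 nuclear genes of the photosynthetic machinery of Arabidopsis thaliana, listed by their AGI identifiers, out of 28712 gene identifiers in each counts file. They encode 9 proteins of the major light-harvesting complex of photosystem II (LHCB1.1 to LHCB1.5, LHCB2.1 to LHCB2.3 and LHCB3), 5 minor antenna proteins (LHCB4.1 to LHCB4.3, LHCB5 and LHCB6), 4 main antenna proteins of photosystem I (LHCA1 to LHCA4) and 3 rarely expressed relatives (LHCB7, LHCA5 and LHCA6). The remaining members are 4 genes of the Rubisco small subunit with that of Rubisco activase (RBCS1A, RBCS1B, RBCS2B, RBCS3B and RCA), 12 genes of photosystem I subunits (PSA) and 6 of photosystem II subunits (PSB). The list was drawn by function and not by a rule on measured values, though with earlier results of these data known. All 44 members passed the filter on low counts in both organs.

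The plants were raised in phytatrays on 1% sucrose with 1 mM KNO3 as the nitrogen source. They then received nitrogen (N, 60 mM in all, as 20 mM KNO3 and 20 mM NH4NO3) or the control salt KCl at 20 mM. Shoots and roots were taken at time 0, which had no treatment, and at 5, 10, 15, 20, 30, 45, 60, 90 and 120 after supply, a number without a unit in the labels that is read here as min. Each of the 38 groups has 3 libraries of polyA RNA, 114 in all, and the labels name neither an age nor separate cultures, so p-values measure only the spread between these samples. The N and KCl media differ in nitrate, ammonium, chloride and total salt, whose effects cannot be told apart.

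Light-harvesting proteins bind chlorophyll and pass absorbed light energy to the reaction centres of the 2 photosystems, which drive electron transport in the thylakoid membrane. Rubisco fixes carbon dioxide, and Rubisco activase keeps it active by removing inhibitory sugar phosphates. These proteins are made from nuclear genes, imported into the chloroplast, and hold a large share of the nitrogen of a leaf, and their transcripts are known to depend on light, the circadian clock and sugars.

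Several members are near-identical copies, and how far their reads can be told apart bears on the values of these copies below. The copies lie side by side, with RBCS3B, RBCS2B and RBCS1B on chromosome 5 and LHCB1.3, LHCB1.1 and LHCB1.2 on chromosome 1. Their coding sequences are 97.25% identical between RBCS1B and RBCS2B, 94.12% to 94.3% between either and RBCS3B, and 95.65% to 96.4% among the LHCB1 trio. The first 120 coding bases of each, all in the first exon, are shown to let the copies be compared by eye. They come from the RefSeq assembly TAIR10.1 and are printed 5′ to 3′ on the coding strand, and capitals mark bases that differ from the first sequence of each trio.
RBCS3B (AT5G38410), chr5:15378187-15378306, minus strand: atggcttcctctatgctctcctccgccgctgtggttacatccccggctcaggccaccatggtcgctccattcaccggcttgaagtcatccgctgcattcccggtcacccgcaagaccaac
RBCS2B (AT5G38420), chr5:15381859-15381978, minus strand: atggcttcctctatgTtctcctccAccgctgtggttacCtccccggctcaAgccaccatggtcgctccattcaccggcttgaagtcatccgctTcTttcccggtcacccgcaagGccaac
RBCS1B (AT5G38430), chr5:15385036-15385155, minus strand: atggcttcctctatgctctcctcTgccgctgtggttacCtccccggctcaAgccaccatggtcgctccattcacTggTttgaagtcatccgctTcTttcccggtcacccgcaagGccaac
LHCB1.3 (AT1G29930), chr1:10478071-10478190, plus strand: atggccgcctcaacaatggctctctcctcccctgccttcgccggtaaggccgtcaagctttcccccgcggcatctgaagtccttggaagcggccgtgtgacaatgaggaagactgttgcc
LHCB1.1 (AT1G29920), chr1:10475773-10475892, minus strand: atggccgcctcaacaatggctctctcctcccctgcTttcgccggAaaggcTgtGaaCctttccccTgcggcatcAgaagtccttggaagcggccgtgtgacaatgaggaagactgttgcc
LHCB1.2 (AT1G29910), chr1:10473127-10473246, minus strand: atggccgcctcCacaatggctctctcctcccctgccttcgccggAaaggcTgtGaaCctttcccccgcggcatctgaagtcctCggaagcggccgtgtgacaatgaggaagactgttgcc
RBCS2B differs from RBCS3B at 7 and RBCS1B at 8 of these 120 bases, and LHCB1.1 differs from LHCB1.3 at 7 and LHCB1.2 at 6. Every 50-base window of the annotated exons was also searched for in the nuclear genome, on both strands. The share found at more than 1 place was 10.6% to 20.5% for the 5 LHCB1 genes and 12% to 16.9% for RBCS1B, RBCS2B and RBCS3B. The share was 23.5% for LHCB2.1, 29.5% for LHCB2.2 and 11.4% for LHCA2. It was 0 for the other members. Levels of these copies are therefore uncertain where the counting split or dropped shared reads.

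The 250 bases before the annotated start were read for motifs known from light- and clock-regulated genes, on both strands. The windows below belong to LHCB2.1, LHCA4, LHCA5 and RCA, which were called in the shoot comparison of N with KCl and whose windows between them hold each motif searched. Capitals mark the matches, printed on the strand of the gene.
LHCB2.1 (AT2G05100), chr2:1824481-1824730, minus strand: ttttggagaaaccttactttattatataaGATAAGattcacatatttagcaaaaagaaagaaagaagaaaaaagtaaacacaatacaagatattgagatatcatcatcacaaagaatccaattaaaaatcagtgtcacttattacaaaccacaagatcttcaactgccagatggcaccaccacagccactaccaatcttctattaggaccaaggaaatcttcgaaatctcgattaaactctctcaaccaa
LHCA4 (AT3G47470), chr3:17495034-17495283, minus strand: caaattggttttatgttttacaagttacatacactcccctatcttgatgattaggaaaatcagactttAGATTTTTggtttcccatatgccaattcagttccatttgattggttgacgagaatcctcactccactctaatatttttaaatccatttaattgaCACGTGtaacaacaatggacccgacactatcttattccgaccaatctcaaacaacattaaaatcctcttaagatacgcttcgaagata
LHCA5 (AT1G45474), chr1:17179000-17179249, plus strand: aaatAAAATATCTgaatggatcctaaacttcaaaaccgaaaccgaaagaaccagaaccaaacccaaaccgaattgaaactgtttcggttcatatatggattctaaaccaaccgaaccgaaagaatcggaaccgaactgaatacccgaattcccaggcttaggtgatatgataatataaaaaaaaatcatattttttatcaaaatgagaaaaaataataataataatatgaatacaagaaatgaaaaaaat
RCA (AT2G39730), chr2:16573693-16573942, minus strand: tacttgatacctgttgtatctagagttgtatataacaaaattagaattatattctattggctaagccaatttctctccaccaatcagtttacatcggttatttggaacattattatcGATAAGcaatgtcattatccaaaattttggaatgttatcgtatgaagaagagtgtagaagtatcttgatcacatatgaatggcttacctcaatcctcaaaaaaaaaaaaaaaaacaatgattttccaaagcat
The G-box (CACGTG) stands in the windows of 10 of 44 members (22.7%) and of 6.58% of all 26707 windows of this length. The I-box (GATAAG) stands in 11 of 44 (25%) and 12.2%, the CCA1 site (AAAAATCT) in 5 of 44 (11.4%) and 6.74%, and the evening element (AAAATATCT) in 1 of 44 (2.27%) and 2.4%. No match overlapped a neighbouring match of another motif in the 4 windows shown. The G-box of LHCA4 begins 88 bases before the start and its CCA1 site, which reads AGATTTTT on this strand, 182 bases before it. A match is a stretch of letters and not a measured binding site.

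The shoot libraries hold 5710272 to 43570824 gene counts, apart from KCl replicate 2 at 90 min, which holds 1302 and was left out so that n = 2 there, and the root libraries 13878732 to 143269564. The 44 members took 1.19% to 3.19% of the gene counts of a shoot library and 0.0219% to 0.117% of those of a root library. Markers of the organs other than photosynthesis followed the labels at time 0, with 12 of 13 shoot markers higher in the shoot, the exception being AN3, and 10 of 11 root markers lower there, PHT1;1 not being called. The 12 root libraries of 10 and 15 min stand apart from the other 45. Of 22185 genes, 18.8% were lower and 11.6% higher in all 12 than in all 45, so root results are given with and without them. In these bulk samples, fewer cells of a type and less RNA per cell cannot be told apart.

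At time 0 every one of the 44 members was higher in the shoot than in the root, by 1.72 to 11.72 on the log2 scale, with a highest adjusted p of 6.40e-09 (edgeR quasi-likelihood F-test). The background is wide, since 79.5% of all genes tested differed between the organs and 36.1% were higher in the shoot. The files of the organs are not alike in what they list: alignments that were not unique stand at 0 in every shoot file and at 2454057 to 29036747 in the root files, and plastid and mitochondrial genes stand at 0 in the shoot files alone. The part of this in the organ differences, those of the near-identical copies included, was not tested. Levels of different genes are compared here as CPM (counts scaled by library size) per kb of exon, given as mean ± SD of 3 libraries. The highest in the shoot were the major antenna genes LHCB1.5 (AT2G34420) at 1260 ± 213 and LHCB1.3 at 1107 ± 260, followed by LHCB1.1 at 764 ± 171 and LHCB1.2 at 756 ± 179. The mean ± SD ranges of LHCB1.5 and LHCB1.3 overlap, as do those of LHCB1.1 and LHCB1.2. The genes share their libraries, so these SDs do not test a difference between genes. Per kb LHCB1.5 was above LHCB1.3 in each shoot library, while the order of LHCB1.1 and LHCB1.2 changed between libraries.

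Below these stood RBCS1A (AT1G67090), the most abundant Rubisco small subunit transcript, at 444 ± 118 CPM per kb, PSBO1 (AT5G66570), of the oxygen-evolving complex of photosystem II, at 406 ± 99.1, and LHCA4 at 392 ± 84.1. The mean ± SD ranges of these 3 overlap, although RBCS1A was the highest of them in each shoot library. At the other end stood LHCA5 at 33.0 ± 2.68, LHCB4.3 (AT2G40100) at 32.5 ± 4.74, LHCB7 (AT1G76570) at 11.3 ± 0.817 and LHCA6 (AT1G19150) at 7.23 ± 3.58. The 3 genes grouped as rarely expressed thus stood among the lowest 4 of the 44 in the shoot.

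The order differed in the root, where RBCS1A stood at 6.21 ± 0.442 and LHCB1.1 at 1.11 ± 1.58 CPM per kb. LHCB1.5 was again the highest at 45.1 ± 11.9 CPM per kb, followed by PSBR (AT1G79040), a small photosystem II protein, at 31.0 ± 4.41, LHCA4 at 17.1 ± 2.50, PSBO1 at 13.5 ± 1.31 and LHCB1.3 at 10.4 ± 2.73. LHCB7, next to last in the shoot, reached 3.45 ± 0.634 in the root and had the smallest difference between the organs (1.72 on the log2 scale, SE 0.23). RBCS1B had the largest, 11.72, with 8 root counts over the 3 libraries. LHCA6 with 15, RBCS2B with 14, LHCB1.4 with 35 and RBCS3B with 50 root counts over the group are also at the edge of detection.

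**Figure D1:**
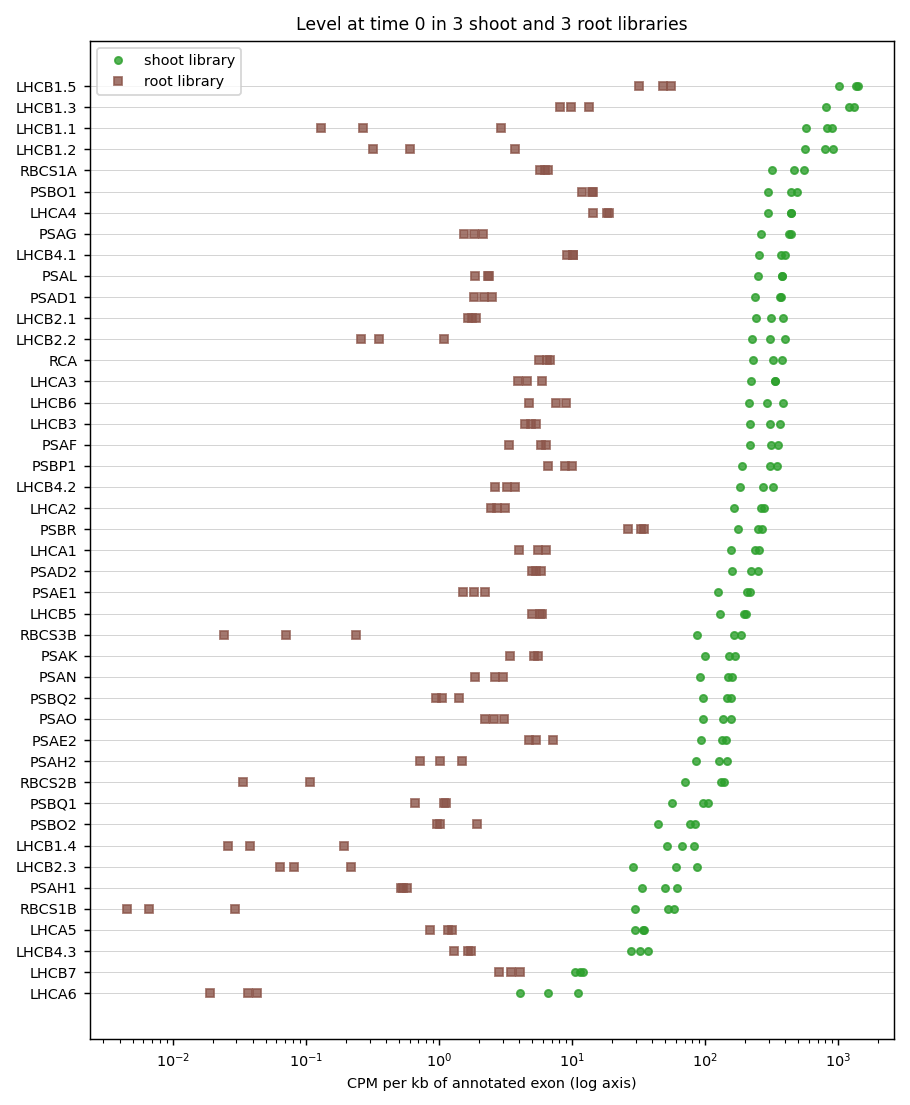
Level of each of the 44 members at time 0 in CPM per kb of exon on a log axis, shoot and root, with a point per library. Every shoot point lies above every root point of the same gene, LHCB1.5 leads in both organs, and RBCS2B of root replicate 2 is at 0 and cannot be drawn.

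In the shoot, members ran above time 0 after transfer to KCl, the control salt, most of all at 15 and 30 min. The summed level of the 44 members was 16759, 11160 and 17825 CPM in the 3 libraries of time 0, against 25579 to 29988 at 15 min and 26285 to 33153 at 30 min of KCl. The KCl libraries of these times all lie above those of time 0, and time 0 replicate 2 is the lowest of all. The median member was higher by 0.82 at 15 min and 0.88 at 30 min on the log2 scale, with medians over all genes of -0.03 and -0.01, and by 0.28 to 0.73 at the other times.

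Over all 9 times together, 4 members were called for KCl against time 0 (8.75% of all genes were, 4.83% higher and 3.92% lower): LHCB1.5, RBCS1A and PSBR were higher and LHCB7 was lower. The count was 13 with DESeq2 and 2 with the nearly empty library kept. At single times, 2 of 44 were higher in the libraries of 5 min (1.09% of genes were), 11 in those of 15 min (2.8%), 18 in those of 30 min (2.06%) and 4 in those of 120 min (1.56%), where LHCB7 was lower (1.39% of genes). At 30 min the 18 took in 4 of 9 major and 2 of 5 minor antenna genes, all 4 main LHCA genes, 4 of 12 photosystem I genes, 2 of 6 photosystem II genes and 2 of 5 Rubisco genes. In fits of only the 2 groups compared, 0 members were higher at 15, 30 or 120 min (0.132%, 0.005% and 0.637% of genes were). The lowest adjusted p of a member there was 0.0544 at 15 min and 0.0676 at 30 min. The counts also rest on few libraries: without time 0 replicate 2 they were 1 at 15 min, 0 at 30 min and 0 at 120 min. Without KCl replicate 2 or 3 of 30 min the count there was 1 or 6, without KCl replicate 1, 2 or 3 of 15 min it was 4, 7 or 4, and without time 0 replicate 3 it was 6 at 15 min.

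For the count at 120 min, leaving out KCl replicate 1, KCl replicate 3, time 0 replicate 1 or time 0 replicate 3 gave 1, 0, 2 or 1. The count at 5 min was 1, 0 or 0 without time 0 replicate 1, 2 or 3. The any-time test gave 1 higher member without time 0 replicate 1 or 3, KCl replicate 2 of 30 min or KCl replicate 3 of 120 min, and 0 without time 0 replicate 2, each time with LHCB7 lower. All these comparisons share the time 0 libraries. KCl replicate 2 of 30 min, the highest in summed members, also had a summed level of root identity markers of 77.5 CPM against 18.1 and 22.3 in the other libraries of its group, and the part of this in the result was not tested.

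LHCB1.3, coding for a trimer-forming antenna protein, stood at 2858, 3470 and 2891 CPM after 30 min of KCl and at 1542, 1050 and 1704 CPM at time 0 (log2 difference 1.1, SE 0.26, adjusted p = 0.0107, edgeR). LHCB1.5 stood at 2467, 2952 and 2365 against 1492, 1112 and 1550 CPM (0.91, SE 0.21, adjusted p = 0.00785). Neither gene's groups overlap, and in both genes time 0 replicate 2 is the lowest library. Without it LHCB1.3 was 0.92 higher with an adjusted p of 0.136 and LHCB1.5 0.77 with 0.109, and without KCl replicate 2 the adjusted p was 0.0659 and 0.0645. In a fit of the 2 groups it was 0.0676 and 0.0765.

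RBCS1A was at 1468, 1079 and 1266 CPM after 15 min of KCl and at 728, 421 and 627 CPM at time 0 (log2 difference 1.1, SE 0.22, adjusted p = 0.00144). It was called without each single library that was left out, but not without all libraries of replicate 2 (adjusted p = 0.0605) or 3 (0.087), nor in a fit of the 2 groups (0.0646). PSBR was at 453, 355 and 415 against 219, 145 and 207 CPM (1.1, SE 0.24, adjusted p = 0.00325), and without time 0 replicate 2 the difference was 0.94 with an adjusted p of 0.0605, and in a fit of the 2 groups the adjusted p was 0.0544. In both genes all 3 KCl libraries lie above all 3 of time 0.

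Photosystem and LHCI genes were also higher at 30 min of KCl. PSAD1 (AT4G02770), at the docking site for ferredoxin on photosystem I, was at 721, 817 and 667 CPM against 428, 282 and 447 (log2 difference 0.93, SE 0.23, adjusted p = 0.0162). PSBO1 was at 1077, 1225 and 1159 against 764, 466 and 701 CPM (0.84, SE 0.22, adjusted p = 0.0253), and LHCA1 (AT3G54890), of the photosystem I antenna, at 489, 643 and 543 against 315, 210 and 343 CPM (0.95, SE 0.28, adjusted p = 0.0455). None of the 3 has overlapping groups, yet each lost its call without time 0 replicate 2 (0.75, 0.65 and 0.76, adjusted p = 0.185, 0.251 and 0.313) and without KCl replicate 2 (0.85, 0.80 and 0.84, adjusted p = 0.0893, 0.104 and 0.2). PSBO1 and LHCA1 also lost it without time 0 replicate 3 (adjusted p = 0.0538 and 0.06) or KCl replicate 3 (0.0736 and 0.1), and LHCA1 without time 0 replicate 1 (0.0825).

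Other members had the same direction without passing the test. RBCS3B was at 360, 596 and 423 CPM after 30 min of KCl against 276, 127 and 245 (log2 difference 1.09, SE 0.35, adjusted p = 0.0827). RCA was at 958, 1468 and 929 against 824, 502 and 715 CPM (0.72, SE 0.26, adjusted p = 0.127), and LHCB2.1 at 787, 624 and 920 CPM after 120 min of KCl against 461, 352 and 567 (0.76, SE 0.26, adjusted p = 0.108). In all 3 genes the KCl libraries lie above those of time 0. LHCA5, at 40.2, 51.8 and 46.7 CPM after 30 min of KCl against 39.0, 33.6 and 38.8, had a smaller difference (0.32, SE 0.16, adjusted p = 0.345).

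LHCB4.3, the least abundant minor antenna gene, was not called: 63.9, 55.1 and 53.4 CPM after 30 min of KCl against 48.9, 42.3 and 57.2 at time 0 (log2 difference 0.22, SE 0.16, adjusted p = 0.556), with overlapping groups. LHCB7 fell. It was at 7.24, 8.26 and 7.24 CPM after 120 min of KCl and at 13.3, 14.5 and 15.6 CPM at time 0 (log2 difference -0.93, SE 0.19, adjusted p = 0.00265), with no overlap, and was also called lower at 45 min (-0.83, with 1.1% of genes lower) and 60 min (-0.75, with 0.976% lower). The call at 120 min held without each single library left out and was lost without all libraries of replicate 1 or of replicate 3. The call at 45 min was lost without time 0 replicate 3, and that at 60 min without time 0 replicate 2 or 3.

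**Figure D2:**
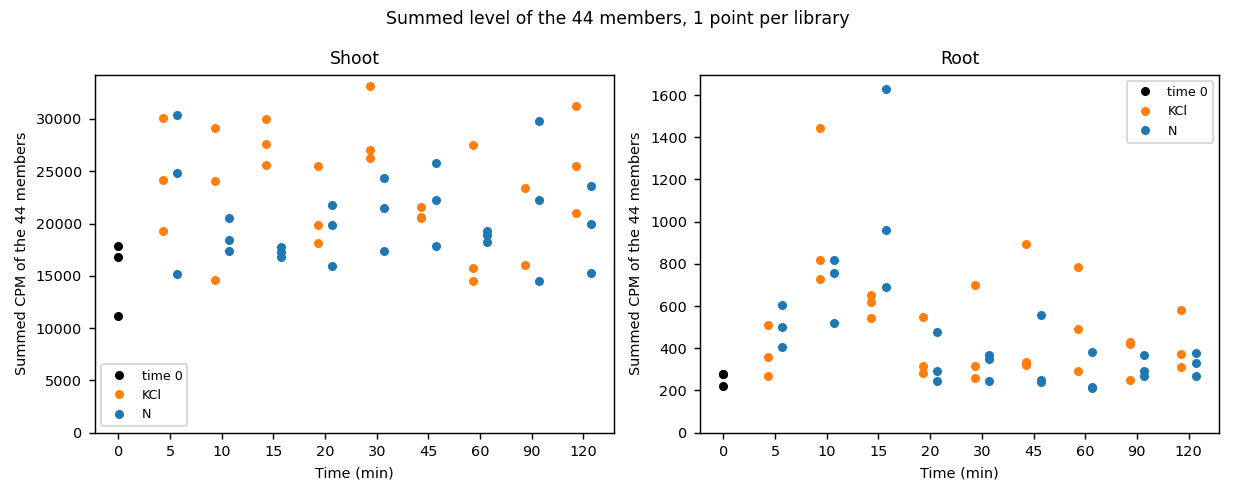
Summed level of the 44 members in CPM in every library against time, shoot and root, with time 0, KCl and N. In the shoot the 3 KCl libraries of 15 min lie between 25579 and 29988 and the 3 N libraries between 16843 and 17707.

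After N supply the shoot transcripts of these genes ran below those of the KCl control at several times, and no member was called higher. N was not tested against time 0. The KCl libraries had themselves risen, with a median member 0.82, 0.88 and 0.73 above time 0 at 15, 30 and 120 min (log2). Being below KCl is therefore not by itself a fall from time 0. At 15 min the summed members of every N library lay within the range of the time 0 libraries. Over all times 8 of 44 were lower for N against KCl, while 47.4% of all genes were called and 23.7% were lower. The share of members called is thus below that of all genes. The 8 are LHCB1.4, LHCB1.5 and LHCB2.1 of the 9 major antenna genes, LHCB7 and LHCA5 of the 3 rare ones, LHCA4 of the 4 main LHCA genes, RCA of the 5 Rubisco genes and PSAH1 (AT3G16140), a photosystem I subunit near the docking site of mobile antenna, of 12. No minor antenna gene and no photosystem II gene was called. Leaving out 1 library of 21 tried, the count ranged from 6 to 9. Leaving out all libraries of replicate 1, 2 or 3 at once gave 25, 4 or 0.

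The difference was widest at 15 min, where all 44 members were below KCl, with a median of -0.68 on the log2 scale against 0.00 over all genes. The medians by role were -0.70 for the major antenna, -0.64 for the minor antenna, -0.70 for the main LHCA genes, -0.32 for the rare genes, -0.77 for the Rubisco genes, -0.63 for photosystem I and -0.69 for photosystem II. In 42 of 44 members all 3 N libraries lay below all 3 KCl libraries, as did 11.1% of all genes. The exceptions by size were LHCB4.3 and LHCB7, each at -0.09.

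Whether these differences pass a test depended on which libraries set the spread. In the fit of all 56 shoot libraries 0 of 44 members passed at 15 min (1.77% of genes did, 0.234% lower), with 39 at an unadjusted p under 0.05, and DESeq2 and limma voom also called 0. In a fit of the 6 libraries of 15 min alone 40 of 44 were lower, against 1.32% of 19335 genes, and 3.85% of those genes were called in either direction. The SD of log2 CPM within groups had a median over members of 0.107 in these 6 libraries and of 0.341 over all shoot groups. The summed markers of shoot identity were 200 to 203 CPM in N and 218 to 244 CPM in KCl at this time, and their part in the result was not tested.

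**Figure D3:**
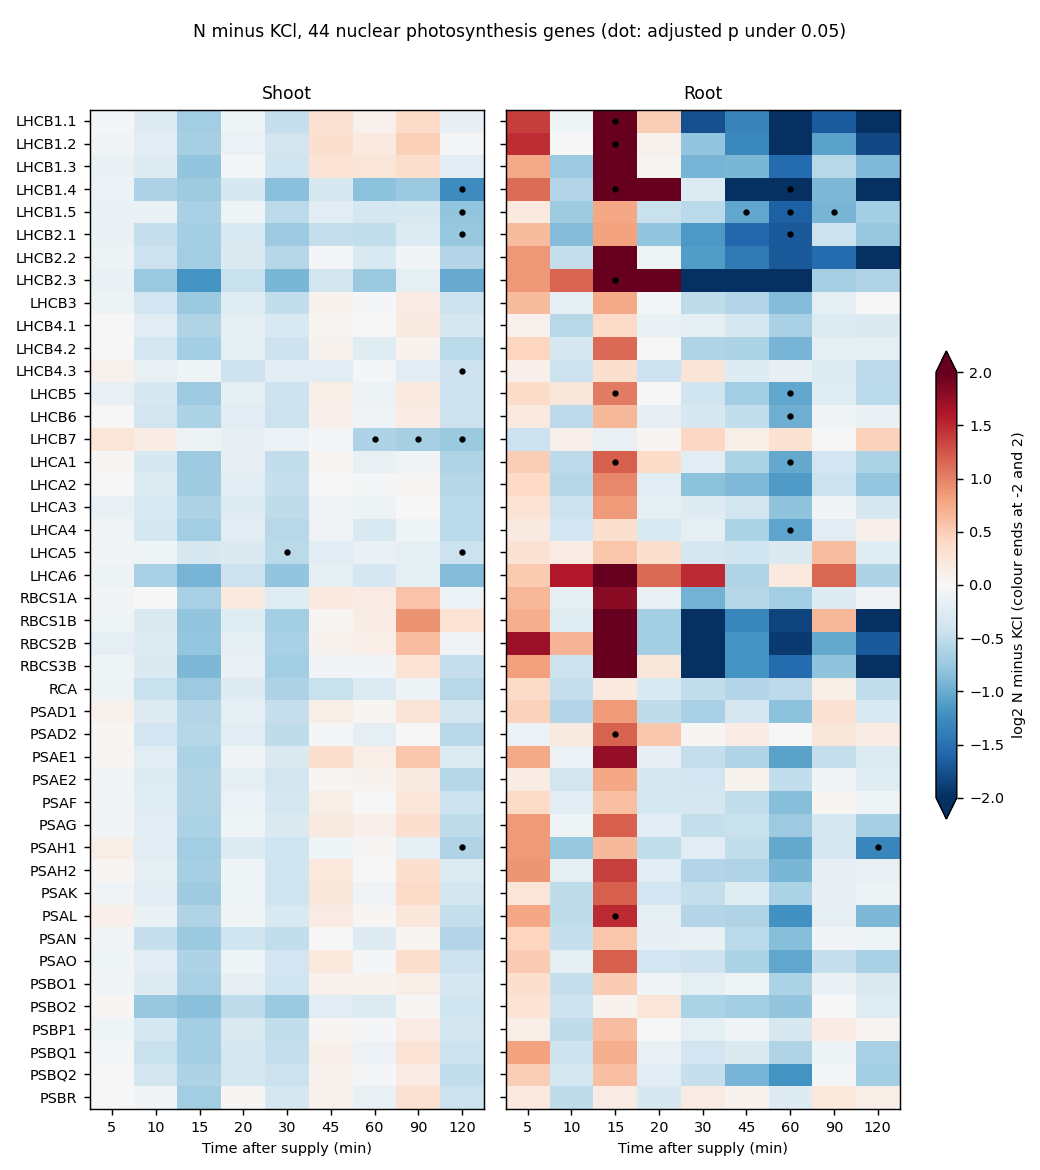
Log2 difference N minus KCl of each of the 44 members at each of the 9 times, shoot and root, ordered by gene family, with called contrasts marked. The shoot column of 15 min is below 0 in all 44 members, with a median of -0.68.

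At 15 min LHCB1.3 was at 1739, 1733 and 1827 CPM in N and 3047, 2851 and 3304 in KCl (log2 difference -0.80, SE 0.26, adjusted p = 0.135, and 0.0106 in the fit of these 6 libraries). RBCS1A was at 927, 739 and 768 against 1468, 1079 and 1266 CPM (-0.65, SE 0.22, adjusted p = 0.157, and 0.0523 in the smaller fit, where it was not called either), and RBCS3B at 246, 212 and 210 against 477, 357 and 406 CPM (-0.89, SE 0.35, adjusted p = 0.269 and 0.00654). In each of the 3 genes the N libraries are the lower 3, with no overlap. RCA was at 714, 601 and 639 in N against 1306, 973 and 948 CPM in KCl (-0.72, SE 0.26, adjusted p = 0.19, and 0.0331 in the smaller fit). RCA passed the any-time test (adjusted p = 0.019) although no single time did.

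The photosystem genes at 15 min gave the same picture. PSAD1 was at 427, 430 and 434 CPM in N against 639, 604 and 693 in KCl (log2 difference -0.58, SE 0.23, adjusted p = 0.271, and 0.0187 in the fit of 6 libraries), and PSBO1 at 741, 693 and 695 against 1153, 1029 and 1145 (-0.64, SE 0.22, adjusted p = 0.174 and 0.0161). LHCA1 was at 327, 319 and 324 CPM against 529, 483 and 594 (-0.73, SE 0.28, adjusted p = 0.239 and 0.00829), and LHCA4, which passed the any-time test with an adjusted p of 0.0439, at 607, 574 and 571 against 915, 871 and 1057. All N libraries lie below all KCl libraries in these 4 genes, and the N libraries lie close together. PSAH1 was at 63.9, 66.8 and 66.9 CPM in N at 15 min against 124, 101 and 94.8 in KCl, again without overlap.

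At 20 min the median member was at -0.20 and at 30 min at -0.46, where 44 of 44 were below KCl and 24 had no overlap (11% of genes). LHCA5, of an LHCI protein present in small amounts, was the 1 member called at 30 min (2.77% of genes were lower), at 35.5, 27.3 and 32.6 CPM in N and 40.2, 51.8 and 46.7 in KCl (log2 difference -0.54, SE 0.16, adjusted p = 0.0372). Its N libraries are the lower 3. Without replicate 2 or 3 of either group the difference was -0.44 to -0.55 with an adjusted p of 0.0891 to 0.185, and in a fit of the 6 libraries the adjusted p was 0.101. At 45, 60 and 90 min the median member was near 0, at 0.05, -0.04 and 0.17, and at 90 min the 5 Rubisco genes had a median of 0.58 and none was called.

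At 120 min 43 of 44 were again below KCl, with a median of -0.44, and 7 of 44 were called lower, while 36.9% of all genes were called and 17.8% were lower. In 12 of 44 members the groups did not overlap (24.6% of genes). The medians by role were -0.59 for the major antenna, -0.43 for the minor antenna, -0.56 for the main LHCA genes, -0.74 for the rare genes, -0.45 for photosystem I, -0.41 for photosystem II and -0.12 for the Rubisco genes. The count moved with single libraries: it was 3 without KCl replicate 3, and 14, 4 and 3 without N replicate 1, 2 and 3. In a fit of the 6 libraries alone 17 were lower, where 39% of genes were called and 18.3% were lower. The summed shoot identity markers were 274 to 293 CPM in N and 204 to 230 in KCl at this time, and their part in the result was not tested.

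LHCB1.4 (AT2G34430), the least abundant LHCB1 gene, was at 131, 76.9 and 71.9 CPM after 120 min of N and at 233, 143 and 290 in KCl (log2 difference -1.25, SE 0.35, adjusted p = 0.00336). LHCB1.5, its neighbour on chromosome 2 with 91.56% coding identity, was at 1771, 1505 and 1185 against 2620, 2123 and 2998 CPM (-0.80, SE 0.21, adjusted p = 0.0021). In both genes all N libraries are below all KCl libraries. For LHCB1.5 the N libraries overlap those of time 0, given above, and that difference was not tested. Both calls held without each single library left out, and were lost without all libraries of replicate 3 (-0.86 and -0.53, adjusted p = 0.179 and 0.175). LHCB2.1 was at 572, 430 and 381 CPM against 787, 624 and 920 (-0.75, SE 0.26, adjusted p = 0.0194), also without overlap. Its adjusted p was 0.0985 without KCl replicate 3 (-0.61), 0.0678 without N replicate 2 (-0.71) and 0.0978 without N replicate 3 (-0.63).

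LHCB4.3 was at 43.3, 34.3 and 27.1 CPM after 120 min of N against 39.3, 52.0 and 47.7 in KCl (log2 difference -0.41, SE 0.16, adjusted p = 0.0369), with overlapping groups. The call was lost without KCl replicate 2 or 3 or N replicate 2 or 3 (-0.25 to -0.40, adjusted p = 0.0887 to 0.27) and in a fit of the 6 libraries (adjusted p = 0.103). LHCA5 (-0.44) and PSAH1 (-0.60) were also called at 120 min. LHCA5 lost its call without KCl replicate 1 or 3 or N replicate 2 or 3, and PSAH1 without replicate 3 of either group. PSAH1 was at 66.4, 64.8 and 49.3 CPM in N against 86.3, 78.5 and 109 in KCl, with no overlap.

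LHCB7, a relative of the antenna proteins whose role is not settled, was the member lowered by N at the most times. It was at 5.13, 6.32 and 5.36 CPM after 60 min of N against 8.49, 8.96 and 8.34 in KCl (log2 difference -0.62, adjusted p = 0.015). At 90 min it was at 7.42, 4.39 and 6.28 against 10.2 and 8.69 CPM (-0.66, adjusted p = 0.015), and at 120 min at 4.15, 5.55 and 3.96 against 7.24, 8.26 and 7.24 CPM (-0.74, SE 0.20, adjusted p = 0.00305). At all 3 times every N library lies below every KCl library, and 12.6% and 18.6% of all genes were lower at 60 and 90 min. Its call at 120 min was the same under all 17 alternatives tried. The call at 90 min was lost in an edgeR fit of the 5 libraries of that time. There 0 of 44 members were lower (9.69% of genes were), with a lowest adjusted p of 0.136.

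The shoot level of LHCB7, at 13.3 to 15.6 CPM at time 0, was thus lower at 120 min in both supplies and lower in N than in KCl. The KCl libraries enter both comparisons, so the falls against time 0 and against KCl are not independent of each other.

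**Figure D4:**
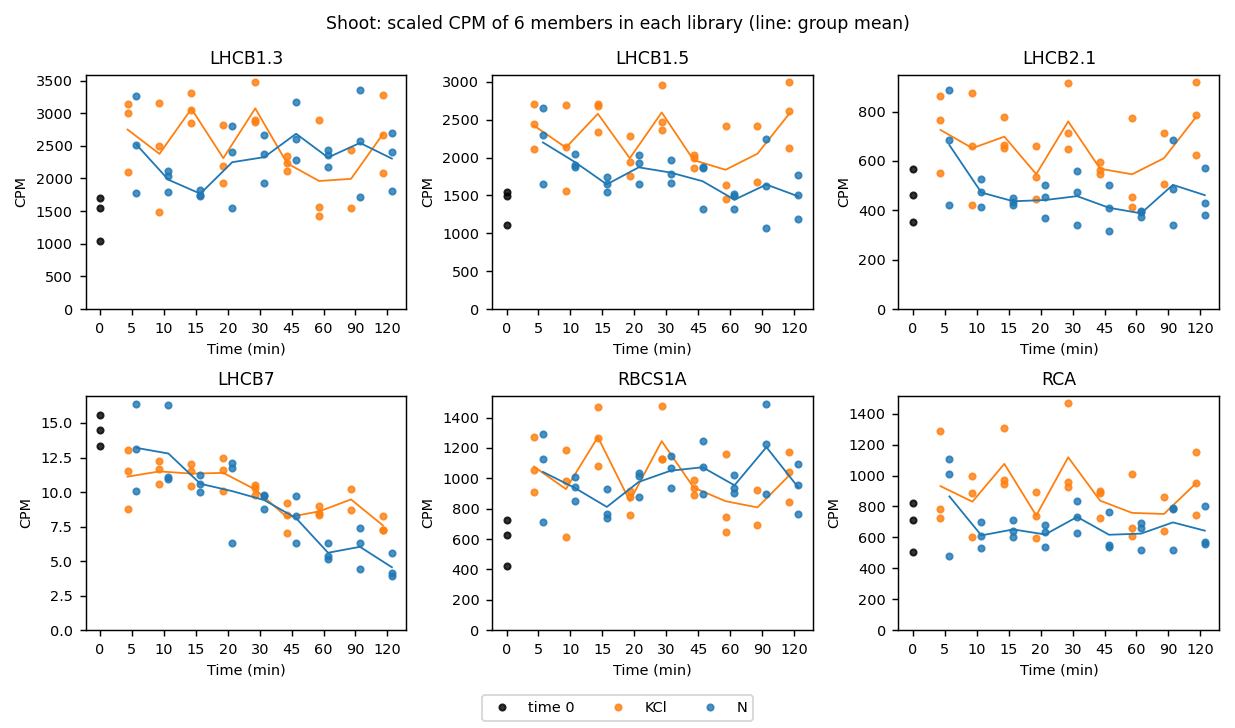
CPM of LHCB1.3, LHCB1.5, LHCB2.1, LHCB7, RBCS1A and RCA in every shoot library against time on linear axes, with lines through group means of KCl and N. LHCB7 runs from 13.3 to 15.6 CPM at time 0 down to 3.96 to 5.55 CPM at 120 min of N.

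Related antenna genes did not keep one ratio. As a description chosen after the values were seen, the log2 ratio of LHCB1.5 to LHCB1.3 within a library, on the CPM scale, was -0.14 to 0.08 in the 3 shoot libraries of time 0 and -0.30 to 0.12 in the 26 KCl libraries. It was -0.46 to 0.10 in the 12 N libraries of 5 to 20 min and -0.79 to -0.48 in the 12 of 45 min and later. The late N libraries thus lie below every KCl and time 0 library. In the 6 N libraries of 30 and 45 min it was -0.79 to -0.22, which overlaps KCl. The ratio of LHCB2.1 to LHCB2.2 ranged from -0.22 to 0.31 over the 12 N libraries of 45 min and later, overlapping the 26 of KCl at 0.05 to 0.44, while it was -0.22 to 0.00 in the 6 N libraries of 30 and 45 min.

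Within shoot groups the members varied together. Across the 56 shoot libraries, deviations of log2 CPM from the group mean had a median correlation between members of 0.93, and the exceptions were LHCB4.3 and LHCB7, with medians of 0.23 and 0.32 with the other members. These libraries share their depth and scaling among all members, so the correlation is a description of the libraries. Replicates of a shoot group differed by a median of 1.47-fold between the lowest and highest library over members, ranging from 1.2-fold to 2.12-fold by member.

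In the root the members are scarce and differed far more between libraries of 1 group. The median fold between replicates over members was 2.19 in the 45 libraries outside 10 and 15 min, and it exceeded 3 for 12 members: LHCB1.1 to LHCB1.4, LHCB2.2, LHCB2.3, LHCA6, PSAE1 and the 4 RBCS genes. RBCS3B replicates differed by a median of 29.7-fold and by 303-fold at most, and LHCB1.1 replicates by 16.7-fold and 225-fold. LHCB1.5 with 1.65-fold and PSBR with 1.43-fold were steady. Over these 45 libraries LHCB1.1 ranged from 0.0725 to 32.2 CPM and RBCS3B from 0.0230 to 9.92 CPM, while PSBR ranged 2.08-fold, PSBO1 2.48-fold and LHCB4.1 2.65-fold.

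Much of this range sits in single libraries. KCl replicate 3 of 45 min had the highest value of 32 of 44 members among the 45 libraries and stood above both other replicates in 41 members, by a median of 2.89-fold over the higher of them. Its summed members were 895 CPM against 320 and 334. Its summed shoot identity markers, which exclude photosynthesis genes, were 55.4 CPM against 55.1 and 55.3. Root sums of these markers include AN3, which was higher in the root at time 0 (log2 shoot minus root -2.97), so they do not measure shoot tissue alone. The part of these sums in the result was not tested. KCl replicate 1 of 60 min had the highest value of 5 further members, with a sum of 787 CPM against 491 and 291. In correlation of deviations within groups over the 45 libraries, members had a median of 0.83, with LHCB7 at -0.05, LHCB4.3 at 0.19, LHCA5 at 0.33 and LHCA6 at 0.35.

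Root members ran above time 0 in KCl. Over all times 24 members were called for KCl against time 0, 21 higher and 3 lower, beside 89.3% of all genes (41% higher and 48.3% lower), so the share of members called is below the background. By role, 3 of 9 major antenna, 3 of 5 minor antenna, 4 of 4 main LHCA, 3 of 5 Rubisco, 3 of 12 photosystem I and 4 of 6 photosystem II genes were higher. LHCA5 of the rare genes was also higher, and LHCB7, PSAD2 and PSAN were lower, each at the time of its smallest p. Without the libraries of 10 and 15 min, where 43 members passed the filter and LHCA6 did not, 6 members were called (59.9% of genes, 28.8% higher and 31.1% lower): LHCB1.4, LHCB4.3, RCA and PSAH1 higher and LHCB7 and PSAD2 lower.

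By time, 28 members were higher after 10 min (34.3% of genes were) and 17 after 15 min (31.9%), each with PSAN lower (38.6% and 36.8% of genes). Later, 1 was higher after 20 min (9.89%), 10 after 30 min (15.9%) and 25 after 45 min (20.3%). The counts were 25 after 60 min (21.3%), 2 after 90 min (20.9%) and 13 after 120 min (24%). These counts also rest on few libraries. At 45 min 3 were higher without KCl replicate 3 and 13 without time 0 replicate 2. At 60 min 2 were higher without KCl replicate 1, and 15 or 11 without time 0 replicate 1 or 2.

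At 120 min 2 were higher without KCl replicate 2, and 7, 3 or 6 without time 0 replicate 1, 2 or 3. At 30 min 4, 2 or 3 were higher without time 0 replicate 1, 2 or 3. The single call at 20 min was PSAH1, and it was lost without KCl replicate 2 or any 1 library of time 0. At 90 min LHCB4.3 and RCA were higher, RCA alone without KCl replicate 1. At 30, 45 and 60 min LHCB7 was lower (15.2%, 20.4% and 21.1% of genes were), and at 90 and 120 min LHCB7 and PSAD2 (19.9% and 24%). The comparisons share the time 0 libraries.

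Named examples show which changes rest on more than 1 library. RCA was at 29.0, 36.8 and 22.7 CPM after 120 min of KCl against 13.0, 14.0 and 11.4 at time 0 (log2 difference 1.2, SE 0.28, adjusted p = 0.000448), with no overlap and the same call under all 17 alternatives. LHCB4.3 was at 3.56, 5.03 and 3.42 CPM at 45 min against 2.39, 2.33 and 1.81 (0.88, SE 0.25, adjusted p = 0.00482), without overlap. Without KCl replicate 2 it was 0.68 with an adjusted p of 0.0507.

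PSAD1 was at 10.6, 8.03 and 3.60 CPM after 60 min of KCl against 2.70, 2.01 and 2.38 (log2 difference 1.64, SE 0.50, adjusted p = 0.00727), without overlap, and at 1.27 with an adjusted p of 0.0618 without KCl replicate 1. LHCB2.1 was at 4.76, 6.41 and 18.2 CPM at 45 min against 2.34, 2.26 and 2.54 (2.04, SE 0.61, adjusted p = 0.00697). RBCS1A was at 10.9, 12.5 and 74.5 CPM against 7.96, 7.79 and 6.97 (2.11, SE 0.71, adjusted p = 0.0154). In both LHCB2.1 and RBCS1A the groups do not overlap and replicate 3 is far above the rest, and without it the differences were 1.23 with an adjusted p of 0.136 and 0.62 with 0.521. RBCS1A was also not called without time 0 replicate 3 (2.05, adjusted p = 0.052).

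RBCS3B at 45 min was at 0.223, 0.175 and 9.92 CPM against 0.0952, 0.0332 and 0.319 at time 0 (log2 difference 4.58, adjusted p = 0.0206), and overlapping groups with 1 high library make up this call: without KCl replicate 3 it was 0.47 with an adjusted p of 0.877. It was not called without time 0 replicate 1 or 2 either (adjusted p = 0.0784 and 0.0724). LHCB7 fell in the root as well, to 2.75, 1.12 and 1.52 CPM after 60 min of KCl from 4.01, 3.33 and 4.75 (-1.12, SE 0.28, adjusted p = 0.00127), with no overlap. Its call was lost without all libraries of replicate 3 (adjusted p = 0.0677, edgeR). PSAD2 (AT1G03130), the second PSAD gene, was at 2.40, 3.09 and 2.11 CPM after 90 min of KCl against 5.30, 4.98 and 4.54 (-0.96, SE 0.29, adjusted p = 0.00746), again without overlap. The PSAD2 call was lost without all libraries of replicate 1 (adjusted p = 0.079, edgeR).

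The libraries of 10 and 15 min, N and KCl alike, did not move the members one way. PSAN (AT5G64040), a lumenal photosystem I subunit, was at 0.0514 to 0.948 CPM in the 12 and at 1.84 to 8.25 CPM in the 45 others. LHCB1.5, LHCB4.3, PSAE2, PSBO1, PSBP1 and PSBR were higher in all 12 than in all 45, with LHCB1.5 at 117 to 427 CPM against 15.7 to 93.1. The ranges of these 7 members do not overlap between the sets. Thus 6 of 44 members were higher in all 12 libraries, beside 11.6% of all genes. Only 1 of 44 was lower in all 12, beside 18.8% of all genes. Outside these times PSAN was called higher at 60 min of KCl, at 7.36, 6.71 and 2.88 CPM against 2.94, 1.84 and 2.55 (log2 difference 1.2, SE 0.43, adjusted p = 0.0208), with overlap, and not without time 0 replicate 2 or KCl replicate 1 or 2 (adjusted p = 0.0664 to 0.11). Summed shoot identity markers, AN3 included, were 104 to 220 CPM in the 12 and 42.8 to 103 CPM in the 45. Summed root identity markers were 417 to 965 against 148 to 526 CPM, and the part of either was not tested.

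**Figure D5:**
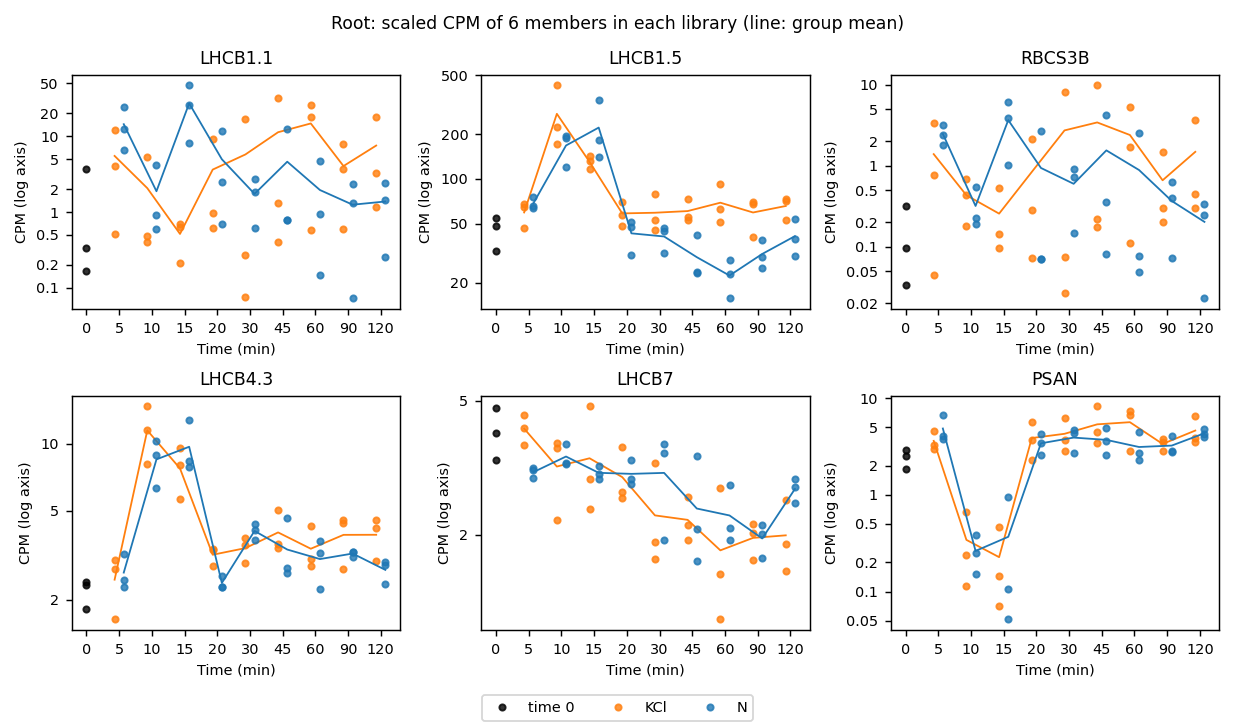
CPM of LHCB1.1, LHCB1.5, RBCS3B, LHCB4.3, LHCB7 and PSAN in every root library against time on log axes, KCl, N and time 0. LHCB1.1 and RBCS3B replicates differ by up to 225-fold and 303-fold, and PSAN is below 0.95 CPM in the 12 libraries of 10 and 15 min.

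For N against KCl in the root, 9 members were called over all times (61% of all genes were, 29.3% higher and 31.7% lower): LHCB1.4, LHCB2.3, LHCA1 and PSAD2 higher and LHCB1.5, LHCB2.1, LHCB5, LHCA4 and RCA lower. The higher calls have their smallest p at 15 min, inside the set of libraries that stands apart, and the lower ones at 45 or 60 min. With limma voom the count was 5. Leaving out 1 of 36 libraries tried, 0 to 8 members were higher and 3 to 8 lower. Without N replicate 2 of 15 min 0 were higher and 5 lower, without KCl replicate 1, 2 or 3 of 15 min 2, 0 or 1 were higher and 4, 6 or 5 lower, and without N replicate 1 of 45 min both counts were 8. Without the libraries of 10 and 15 min 4 members were called, all lower (55% of genes called, 26.4% lower): LHCB1.4 (adjusted p = 0.0356), LHCB1.5 (9.10e-06), LHCB2.1 (0.0431) and LHCA4 (0.00433).

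At 15 min the median member was 0.90 above KCl on the log2 scale, and 8 were called higher (8.26% of genes were). In 25 of 44 members all N libraries were above all KCl libraries (16.3% of genes). The count was 2, 1 or 2 without KCl replicate 1, 2 or 3, 1 without N replicate 2 and 16 without N replicate 3. In a fit of these 6 libraries 27 of 39 members tested were higher (28.4% of genes called, 13.6% higher). The summed members were 961, 1627 and 690 CPM in N and 618, 543 and 650 CPM in KCl. Summed shoot identity markers were 149 to 167 CPM in N and 104 to 121 in KCl. Most of these sums was AN3, at 140 ± 9.07 CPM in N and 89.8 ± 9.63 in KCl. Root identity markers were 427 to 475 against 682 to 965 CPM, and the part of the markers in the result was not tested.

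PSAD2 was at 10.2, 13.0 and 10.0 CPM after 15 min of N and at 4.93, 5.64 and 4.1 in KCl (log2 difference 1.19, SE 0.30, adjusted p = 0.00264), with no overlap and the same call under all 16 alternatives. LHCA1 was at 22.9, 38.0 and 18.1 against 13.4, 8.90 and 12.2 CPM (1.19, SE 0.38, adjusted p = 0.017), without overlap. LHCA1 was not called without KCl replicate 2 (1.04, adjusted p = 0.0794) or N replicate 2 (0.84, adjusted p = 0.165).

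LHCB1.4, at 0.118, 3.20 and 0.617 CPM in N against 0.232, 0.0486 and 0.0712 in KCl (log2 difference 3.38, SE 1.25, adjusted p = 0.0418), has overlapping groups. LHCB2.3, at 0.237, 2.99 and 0.566 against 0.0331, 0.0486 and 0.0712 CPM (4.57, SE 1.65, adjusted p = 0.037), has none. Both lean on N replicate 2, without which they were at 1.59 with an adjusted p of 0.507 and at 2.94 with 0.328. They were also not called without any 1 of the 3 KCl libraries (adjusted p = 0.066 to 0.117 and 0.0805 to 0.119).

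Other named members at 15 min missed the threshold: LHCB1.3 was at 74.0, 172 and 38.0 CPM against 24.7, 19.1 and 27.3 (log2 difference 1.99, SE 0.85, adjusted p = 0.0773), RBCS1A at 67.0, 93.1 and 30.3 against 19.9, 17.1 and 17.4 (1.81, SE 0.71, adjusted p = 0.0539), and RBCS3B at 3.91, 6.08 and 1.03 against 0.530, 0.0973 and 0.142 (3.75, SE 1.72, adjusted p = 0.102). In these 3 genes no N library is below a KCl library, but the N libraries differ several-fold among themselves. In a fit of the 6 libraries of 15 min the 3 were called, with an adjusted p of 0.00544, 0.00213 and 0.00352.

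At 60 min the direction was the other one, with a median of -0.92 over the members and 0.01 over all genes. There 7 members were called lower (12.5% of genes were), and 5 had no overlap (16.4% of genes). The count was 2, 3 or 12 without KCl replicate 1, 2 or 3, and 2 without N replicate 1 or 2. In a fit of the 6 libraries 3 of 42 members tested were lower (6.8% of genes were). Summed members were 210 to 381 CPM in N and 291 to 787 in KCl. Summed shoot identity markers, AN3 included, were 58.5 to 86.8 CPM in N and 46.2 to 64.2 in KCl.

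LHCB1.5 carried the clearest root response. After 60 min it was at 15.7, 22.9 and 28.5 CPM in N and 93.1, 63.1 and 51.4 in KCl (log2 difference -1.63, SE 0.32, adjusted p = 0.000145), with no overlap and the same call under all 16 alternatives. At 45 min it was at 42.2, 23.3 and 23.7 against 55.8, 53.0 and 73.5 CPM (-1.03, adjusted p = 0.019, 7.89% of genes lower), and at 90 min at 25.2, 38.6 and 29.9 against 69.9, 67.6 and 40.8 CPM (-0.93, adjusted p = 0.032, 8.28% of genes lower). The N libraries are below the KCl libraries at all 3 times. At 45 min LHCB1.5 was the 1 member called, and 6 were without N replicate 1. Its call at 45 min was lost without KCl replicate 3 or N replicate 2 or 3, and that at 90 min without KCl replicate 1 or 2 or N replicate 1 or 3.

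LHCA4 was at 12.9, 16.8 and 18.8 CPM after 60 min of N against 45.0, 32.3 and 23.6 in KCl (log2 difference -1.06, SE 0.24, adjusted p = 0.00107), without overlap, and its call held without each single library left out but not without all libraries of replicate 1 (adjusted p = 0.0899). LHCB2.1 was at 2.23, 1.85 and 4.19 against 13.7, 9.08 and 3.54 CPM (-1.68, SE 0.63, adjusted p = 0.0419), with overlap, and not called without KCl replicate 1 or 2 or N replicate 1 or 2 (-1.18 to -1.66, adjusted p = 0.0812 to 0.208). The LHCB2.1 call at 60 min was also lost with limma voom, with the replicate block and without the root libraries of 10 and 15 min. LHCB5 (AT4G10340), of a monomeric minor antenna protein, was at 6.90, 6.28 and 12.1 against 28.2, 14.3 and 8.80 CPM (-1.03, SE 0.37, adjusted p = 0.0336), with overlap. It was not called without KCl replicate 1 (-0.45, adjusted p = 0.415) or N replicate 1 or 2 (0.106 and 0.139), nor in a fit of the 6 libraries (0.124).

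PSBO1 was at 15.0, 17.3 and 19.9 CPM in N at 60 min against 35.0, 25.6 and 20.5 (log2 difference -0.64, SE 0.29, adjusted p = 0.0975), below in every library but not called. RCA, called over all times with an adjusted p of 0.0476, was at 28.3, 12.9 and 16.2 CPM at 45 min against 23.2, 23.2 and 39.6 (-0.59, SE 0.28, adjusted p = 0.142), with overlap, and at -0.98 with an adjusted p of 0.0196 without N replicate 1. PSAH1 was the 1 member called at 120 min (-1.30, adjusted p = 0.044, 18.5% of genes lower), and not without KCl replicate 2 or any 1 of the N libraries. LHCB7, lowered by N in the shoot, was at 2.78, 2.48 and 2.93 CPM after 120 min of N in the root against 1.56, 1.87 and 2.54 (0.45, SE 0.27, adjusted p = 0.191).

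The N effect differed between the organs in 11 members, all lower in the shoot at the time of smallest p (36% of all genes called, 15.3% lower): LHCB1.1, LHCB1.2, LHCB1.4, LHCB1.5, LHCB2.3, LHCB5, LHCB7, LHCA1, LHCA4, RBCS2B and PSAD2. The count was 4 with limma voom, and 7 with the replicate block and with near-identical copies summed. For all but LHCB7 the smallest p was at 15 min, where the difference N minus KCl was lower in the shoot than in the root. For LHCB7 it was at 120 min, where N lowered it in the shoot and not detectably in the root. Without the root libraries of 10 and 15 min LHCB1.5 (adjusted p = 0.0189) and LHCB7 (0.00366) were called (28.3% of genes). LHCB1.5 then had its smallest p at 60 min, where it was lower in N in the root.

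Other genes of the pathway, in lists made with earlier results of these data known, were counted in the same any-time tests of N against KCl, with the direction taken at the time of the smallest p. Against a background of 47.4% of all genes called in the shoot and 61% in the root, 3 of 16 Calvin cycle genes other than Rubisco were called in the shoot (2 higher, 1 lower) and 7 in the root (5 higher, 2 lower), both below the background. Transketolase TKL1 (AT3G60750) stood out, at 3709 ± 103 CPM after 120 min of N in the shoot against 755 ± 65.3 in KCl (log2 difference 2.3, SE 0.15, adjusted p = 7.17e-17, n = 3 each, edgeR) and at 3148 ± 213 against 363 ± 52.8 CPM at 90 min in the root (3.12, SE 0.17). TKL1 is shared with the pentose phosphate pathway. PRK, the kinase that makes the sugar Rubisco acts on, was the 1 called lower in the shoot, with its smallest p at 15 min, where it was -0.76 (SE 0.29, adjusted p = 0.242 at that time alone).

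Of 16 chlorophyll synthesis genes, 2 were called in the shoot, beside 47.4% of all genes: GSA1, of the first steps of the pathway, rose (0.47, SE 0.10, at 90 min), and CHLH, of magnesium chelatase, passed the any-time test (adjusted p = 0.0284). CHLH had its smallest p at 15 min, where it was -0.57 and not called at that time alone (SE 0.21, adjusted p = 0.232). In the root 4 were called higher and 5 lower, 9 of 16 beside 61% of all genes. Of 18 genes of electron transport and ATP synthase, 5 were called in the shoot (2 higher, 3 lower), below the 47.4% of all genes. The kinase STN7, which acts on antenna proteins during state transitions, was at 58.8 ± 2.28 CPM in N against 106 ± 8.70 in KCl at 120 min (log2 difference -0.85, SE 0.10), and TAP38, the opposing phosphatase, at 30.3 ± 5.05 against 54.9 ± 3.74 (-0.86, SE 0.14). In the root 7 of 18 were called (5 higher, 2 lower), below the 61% of all genes, with PSBP2 and the ferredoxin FD2 (1.07, SE 0.19, at 120 min) among the higher ones.

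Of 13 regulators of greening and light response, 9 were called in the shoot (5 higher, 4 lower), beside 47.4% of all genes, and 6 in the root (3 higher, 3 lower), beside 61%. The GATA factors CGA1 and GNC, known to promote chlorophyll accumulation, rose in the shoot. CGA1 was at 67.0 ± 12.6 CPM in N against 11 ± 2.2 in KCl at 120 min (log2 difference 2.61, SE 0.22, n = 3 each). GNC was at 87.2 ± 2.33 (n = 3) against 23.8 ± 0.0487 (n = 2) at 90 min (1.87, SE 0.21). HYH, a bZIP partner of HY5 in light signalling, rose in both organs (2.38, SE 0.20, and 2.02, SE 0.14, both at 60 min). At the same times no antenna, Rubisco or photosystem member was called higher in the shoot. Of the organ markers, 7 of 13 shoot markers were called in the shoot (6 higher, 1 lower) and 2 of 9 in the root (1 higher, 1 lower). Of the root markers 1 of 9 was called in the shoot, higher, and 9 of 11 in the root (3 higher, 6 lower). The same shares of all genes, 47.4% in the shoot and 61% in the root, stand beside these counts.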

How the data were processed

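PolyA RNA of shoots and roots was sequenced in 114 libraries. The authors deposited whole-number counts of reads per gene, made with TopHat2 version 2 and HTSeq on TAIR10 per the submitters' processing notes, which also name limma. The counting mode is not given in the sources used here. From the deposited counts, edgeR 4.0.16 (R 4.3.3) fitted TMM-scaled quasi-likelihood models per organ, with all groups in 1 fit, and genes were kept by filterByExpr (minimum count 10, minimum total 15). P-values were adjusted by Benjamini and Hochberg's method across every gene in the fit, and calls use 0.05. An any-time test is a joint F-test over the 9 times, with the direction taken at the time of the smallest p, and organs were compared in 1 fit of both. CPM are counts scaled by TMM library size. A library with 1302 gene counts was left out, and the other libraries hold 5710272 to 143269564. The rows for reads without a gene stayed out of library sizes. Alternatives were RLE scaling, DESeq2 1.42.0, limma voom 3.58.1, no filter, that library kept, the replicate block, each replicate or library left out, only the 2 groups compared, summed near-identical copies and, chosen after seeing the data, omission of the root libraries of 10 and 15 min. The fits were tested on simulated data.

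The members and lists were chosen with earlier results of these data known. The text names up to 5 called members per direction, organ and any-time test by smallest p, 11 fixed members (LHCB1.3, LHCB2.1, LHCB4.3, LHCB7, LHCA1, LHCA5, RBCS1A, RBCS3B, RCA, PSAD1 and PSBO1), and up to 3 called members of each other list per organ. One root library of time 0 has shoot in one label and root in its title and organ label, and was taken as root. Treatments of the libraries without a treatment label come from their titles.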

Additional observations from a re-analysis of the deposited data

Results flagged for a closer look

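The N effect differed between shoot and root, by the joint edgeR test of the interaction over the 9 times, in 11 members. The adjusted p was 0.01933 for LHCB1.1, 0.03587 for LHCB1.2, 0.01213 for LHCB1.4, 0.001606 for LHCB1.5, 0.04225 for LHCB2.3 and 0.021 for LHCB5. It was 0.009493 for LHCB7, 0.02322 for LHCA1, 0.04595 for LHCA4, 0.04913 for RBCS2B and 0.00399 for PSAD2. In all but LHCB7 the smallest p was at 15 min, where the root libraries stand apart.

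Outside the nuclear genes, the plastid genome's own genes took up to 0.4402% of the gene counts of a root library, while they are listed at 0 in the shoot libraries. These counts were not taken out before the fits, so they could enter library sizes and the shares of all genes. None of the 44 members is a plastid gene, and the part of these counts in the results was not tested.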

How the results depend on the processing

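All 44 members stayed higher in the shoot at time 0 under every alternative (38 of 38 with copies summed). The any-time count for N against KCl in the shoot, 8, was 7 or 8 with another scaling, tool or filter, the nearly empty library kept, the block or summed copies, 6 to 9 without 1 library and 0 to 25 without a replicate. In the root it was 9, 5 with limma voom, 4 without the libraries of 10 and 15 min and 2 to 29 without a replicate. For KCl against time 0 in the shoot it was 4, 13 with DESeq2, 2 with the nearly empty library kept and 0 to 2 without a replicate. In the root it was 24, 6 without the libraries of 10 and 15 min and 15 to 36 without a replicate. Of the 11 organ differences, limma voom left 4, summed copies 7, omission of those root libraries 2, and leaving out a replicate 2 to 13. With the replicate block the counts were 8, 9, 4 and 24 as before, and 7 for the organ difference. Same-numbered libraries deviated together, with a correlation over 0.1, in 7 of 26 shoot and 11 of 27 root pairs. Correlations ran from -0.53 to 0.63 in the shoot and from -0.39 to 0.31 in the root. A count over such a threshold does not decide whether the numbers pair the libraries. For 58 named differences, 812 of 958 alternative values kept direction and call, 119 lost the call, 27 gained one and 0 changed sign. The causes were not tested. Depth limits the root values of RBCS1B, LHCA6, RBCS2B, LHCB1.4 and RBCS3B, with 8 to 50 counts over the 3 libraries of time 0.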
